A study of Homo sapiens with 8 samples.

Results

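The protein kinase C family is described here through its 8 members annotated on the array, PRKCA, PRKCB, PRKCD, PRKCE, PRKCH, PRKCI, PRKCQ and PRKCZ. All their probe sets were taken, 25 of the 54675 on the array, for 8 of the 19775 genes with a symbol. The family was selected on earlier results from these arrays, among them the low PRKCA signal after treatment in both lines, so the members' changes are given as a description without p-values. The study exposed human multiple myeloma cell lines to Zalypsis, a synthetic alkaloid related to marine natural products that binds DNA. The 4 groups of 2 arrays were MM1S cells with 5 nM Zalypsis, MM1S control cells, OPM1 cells with 5 nM Zalypsis and OPM1 control cells. Treated cells were collected once 15 to 20% of them were dying by Annexin V staining, and neither the hours of exposure nor the vehicle of the controls is given in the sources used here. Each line stands for 1 tumour grown in culture. The labels do not state whether paired arrays stand for independent cultures, so every error and p-value here covers the scatter between arrays, perhaps only a technical one.

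Protein kinase C enzymes are serine and threonine kinases that relay signals from phospholipase C. That enzyme cuts a membrane lipid into diacylglycerol, which holds classical and related family members at the membrane, and inositol trisphosphate, which releases calcium. Classical members (PRKCA, PRKCB) need both calcium and diacylglycerol, the calcium-independent members (PRKCD, PRKCE, PRKCH, PRKCQ) need diacylglycerol only, and atypical members (PRKCI, PRKCZ) need neither and work in cell polarity complexes. In B lymphocytes PRKCB carries the antigen receptor signal to NF-kB, and in T lymphocytes PRKCQ does the same for the T cell receptor.

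Expression on the arrays was tested with limma on log2(signal + 32), and log2 changes below are Zalypsis minus control on that scale, with the standard error of the fit. The scale understates the change of dim probe sets. For each gene the probe set with the highest mean over the 8 arrays was used, and the dimmest 40% of genes, those with a mean signal under 27.3, were left out. This kept 5 members, PRKCA, PRKCB, PRKCD, PRKCI and PRKCQ, among 11865 genes. A second fit took every probe set by itself, with a limit of 17.6, and kept 13 of the members' 25 probe sets among 32768. A gene or probe set was called at an adjusted p below 0.05.

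The median signal of an array lay between 22.97 and 24.81, and arrays of a group correlated at 0.988 to 0.993. The first OPM1 control array stood apart in RNA integrity, with a GAPDH 3′ to 5′ ratio of 2.26 against 0.963 to 1.06 on the other 7. The 4 poly-A control transcripts, which are added to RNA before labelling, had geometric means of 1948 and 1479 on the OPM1 Zalypsis arrays against 349 and 541 on the OPM1 control arrays. On the MM1S arrays they gave 30.6 and 27.5 with Zalypsis against 22.70 and 24.97 in control cells. Results scaled by these controls are given below as an alternative, and why the controls differ between groups was not tested. SDC1, the plasma cell marker CD138, had signals of 6.56 to 13.96 on the OPM1 arrays against 2370 to 3443 on the MM1S arrays, so cells of the line OPM1 are called OPM1-labelled below. Of 8 plasma cell markers, 6 had a mean over 100 in OPM1 control cells and 7 in MM1S control cells. CD38 was higher in OPM1 control cells (400.13 and 578.11) than in MM1S control cells (61.06 and 47.30), and the others were lower.

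The promoters of PRKCA, PRKCB and PRKCQ are shown because their signals responded in different ways: PRKCA alike in both lines, PRKCB and PRKCQ less in MM1S than in OPM1-labelled cells. Each runs 5′ to 3′ over 300 bases, 250 before and 50 after the RefSeq start of the gene in GRCh38.p14. Capitals mark the GC box GGGCGG or its reverse complement CCGCCC. PRKCA lies at chr17:66302363-66302662 on the plus strand, PRKCB at chr16:23835733-23836032 on the plus strand and PRKCQ at chr10:6580597-6580896 on the minus strand.
PRKCA: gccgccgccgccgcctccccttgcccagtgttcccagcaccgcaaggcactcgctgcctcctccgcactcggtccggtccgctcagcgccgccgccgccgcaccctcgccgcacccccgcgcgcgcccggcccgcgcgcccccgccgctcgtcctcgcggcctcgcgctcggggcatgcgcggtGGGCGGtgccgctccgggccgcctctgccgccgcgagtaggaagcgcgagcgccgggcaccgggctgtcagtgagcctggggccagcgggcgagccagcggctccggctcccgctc
PRKCB: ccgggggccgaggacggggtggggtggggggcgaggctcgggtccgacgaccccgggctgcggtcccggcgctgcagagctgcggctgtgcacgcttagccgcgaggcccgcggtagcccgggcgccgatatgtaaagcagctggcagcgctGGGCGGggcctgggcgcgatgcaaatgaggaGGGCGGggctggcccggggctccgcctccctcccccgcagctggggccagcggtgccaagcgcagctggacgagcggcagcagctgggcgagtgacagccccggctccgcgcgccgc
PRKCQ: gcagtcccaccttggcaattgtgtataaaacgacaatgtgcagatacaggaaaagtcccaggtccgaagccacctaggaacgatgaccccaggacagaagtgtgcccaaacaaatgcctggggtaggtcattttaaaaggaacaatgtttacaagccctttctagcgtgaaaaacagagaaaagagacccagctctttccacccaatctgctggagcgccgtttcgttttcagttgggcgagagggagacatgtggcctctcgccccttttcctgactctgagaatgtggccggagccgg
The PRKCA window had a GC content of 81.3% with 52 CpG pairs, and 1.60% of 35116 promoters of the same length were at least as rich. PRKCB had 77.7% and 38 CpG pairs, and PRKCQ 51.3% and 11, around a median of 58.7% and 14 over all promoters. PRKCA held 1 GC box, PRKCB 2 and PRKCQ none, while PRKCQ held 1 TATAAA. Over both strands a GC box stood in 45.0% of all promoters and TATAAA in 11.5%. The 8 members have 13 such windows, of which 10 held a GC box and none held the E box CACGTG, found in 7.26% of all promoters. These matches describe letters only.

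PRKCA, the classical enzyme found in most tissues, was far lower after Zalypsis in both lines. Its brightest probe set, 213093_at, read 22.14 and 21.80 in MM1S Zalypsis cells against 568.11 and 545.47 in MM1S control cells. In OPM1-labelled cells it read 17.26 and 2.42 with Zalypsis against 542.79 and 354.02 in control cells. No treated array came within 10-fold of a control array, and the treated values lay at or under the median of their arrays. Means were 21.97 ± 0.24 with Zalypsis and 557 ± 16.01 in control MM1S cells, and 9.84 ± 10.5 with Zalypsis and 448 ± 134 in control OPM1-labelled cells (SD, n = 2 each). The log2 changes were -3.45 ± 0.17 and -3.52 ± 0.17, and the responses differed by -0.07 ± 0.24 (OPM1-labelled minus MM1S), which was not called. Scaled by the poly-A controls, the changes were -4.60 and -2.50 and the difference 2.10.

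The other probe sets of PRKCA were dimmer. 215195_at read 31.14 and 18.74 with Zalypsis against 45.08 and 43.34 in control MM1S cells. OPM1-labelled cells read 38.90 and 39.80 with Zalypsis against 72.51 and 55.77 in control cells. Its groups did not overlap either, but its changes were -0.43 ± 0.14 and -0.42 ± 0.14. The remaining 3, 215194_at, 206923_at and 1560074_at, stayed between 1.00 and 21.8 on all arrays and were not tested. Averaged over all 5 probe sets the PRKCA change was -0.79 in MM1S and -0.78 in OPM1-labelled cells, so its size rests on which probe set is read.

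PRKCB, the classical enzyme of B cell receptor signalling, was lower after Zalypsis in both lines, and much more so in OPM1-labelled cells. Probe set 209685_s_at read 104.64 and 71.07 in OPM1 Zalypsis cells against 1151.09 and 901.71 in OPM1 control cells. In MM1S it read 19.23 and 17.82 with Zalypsis against 42.70 and 47.75 in control cells. Means were 87.9 ± 23.7 with Zalypsis and 1026 ± 176 in control OPM1-labelled cells, and 18.5 ± 0.997 with Zalypsis and 45.2 ± 3.57 in control MM1S cells (SD, n = 2 each). The log2 changes were -3.15 ± 0.15 in OPM1-labelled cells and -0.61 ± 0.15 in MM1S. The difference between the responses was -2.54 ± 0.21, the largest of the 5 tested members. The dim control signal in MM1S limited how far PRKCB could fall there on this scale, so part of the difference follows from the starting level. Deposited means fell 11.7-fold in OPM1-labelled cells and 2.44-fold in MM1S.

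Further probe sets of PRKCB went the same way with 1 exception. 207957_s_at read 28.38 and 22.36 with Zalypsis against 235.93 and 268.40 in control OPM1-labelled cells, and changed by -2.31 ± 0.12. 227817_at read 43.01 and 26.35 with Zalypsis against 243.82 and 270.14 in control OPM1-labelled cells, and changed by -2.13 ± 0.15. In MM1S these probe sets changed by -0.64 ± 0.12 and -0.60 ± 0.15. 228795_at, in contrast, read 67.64 and 41.56 with Zalypsis against 67.46 and 66.69 in control OPM1-labelled cells, and 75.09 and 43.09 with Zalypsis against 61.62 and 36.89 in control MM1S cells. Its groups overlapped in both lines (-0.21 ± 0.19 and 0.16 ± 0.19). 227824_at and 230437_s_at were too dim to test. Without probe sets that may match several transcripts (_s_at, _x_at and _a_at), 228795_at stands for PRKCB and the gene is no longer called in either line, nor is its difference between them (-0.37).

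**Figure D1:**
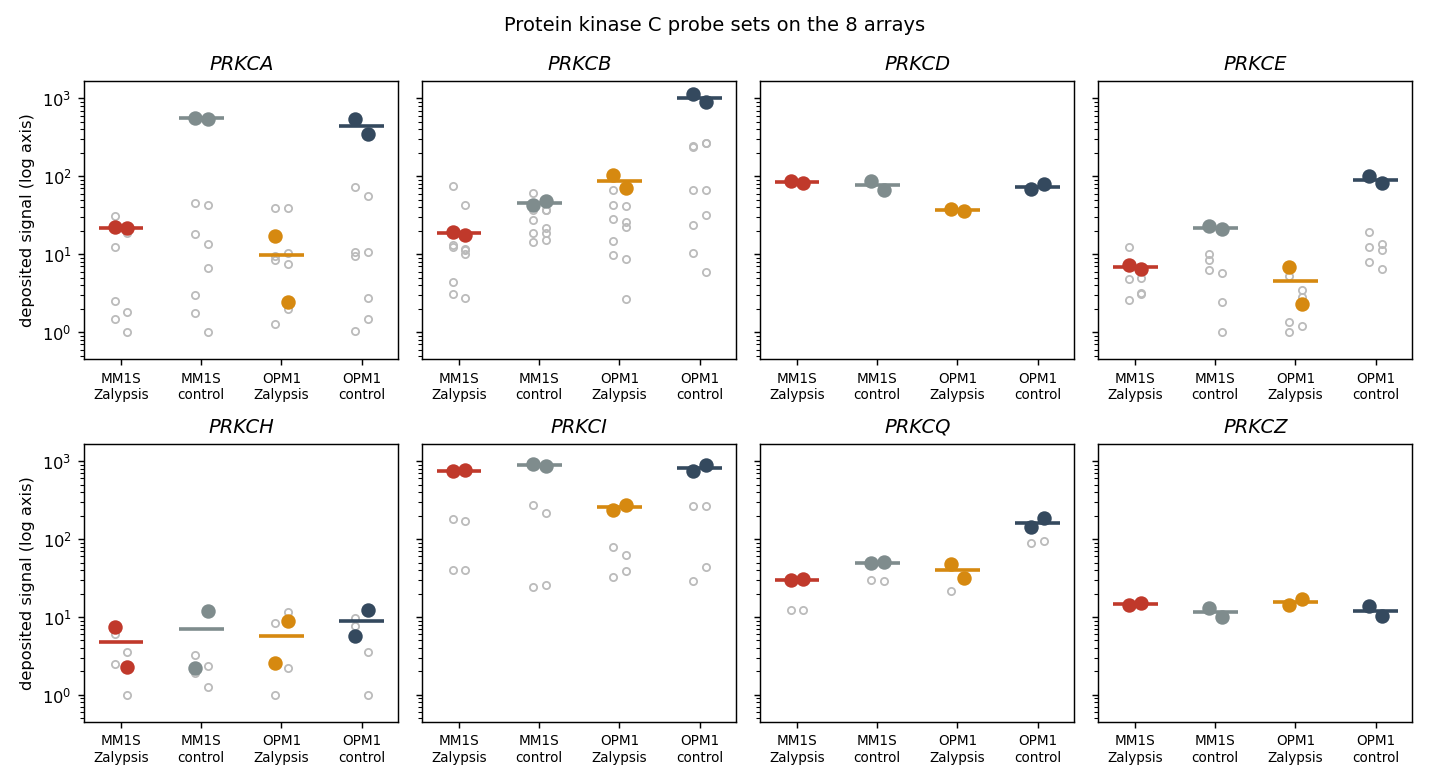
Deposited signal (log axis) of every probe set of the 8 members on the 8 arrays. Filled points are the brightest probe set of each gene, open points its other probe sets, and lines the group means of the filled points. PRKCA is low on all 4 Zalypsis arrays, PRKCB is high on the 2 OPM1 control arrays, and PRKCH and PRKCZ stay dim throughout.

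Among members that need no calcium, PRKCD, a kinase with roles in cell death and in B cell tolerance, had a single probe set, 202545_at. In OPM1-labelled cells it read 38.30 and 36.23 with Zalypsis against 68.14 and 78.77 in control cells. MM1S cells read 87.37 and 82.13 with Zalypsis against 86.57 and 67.08 in control cells. The groups were apart in OPM1-labelled cells (-0.60 ± 0.13) and overlapped in MM1S (0.11 ± 0.13). The responses differed by -0.71 ± 0.18.

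PRKCQ, the enzyme of T cell receptor signalling, had 2 probe sets, both lower with Zalypsis in both lines. 210038_at read 47.53 and 31.86 in OPM1 Zalypsis cells against 141.16 and 183.80 in OPM1 control cells. The MM1S arrays gave 29.56 and 30.67 with Zalypsis against 49.07 and 50.70 in control cells. The log2 changes were -1.44 ± 0.14 in OPM1-labelled cells and -0.40 ± 0.14 in MM1S, with a difference of -1.04 ± 0.20, which was -0.43 and not called with the poly-A scaling. Deposited means fell 4.09-fold in OPM1-labelled cells and 1.66-fold in MM1S. The dim control signal in MM1S limited how far PRKCQ could fall there on the log2 scale. The dimmer 210039_s_at changed by -1.07 ± 0.13 in OPM1-labelled cells and by -0.47 ± 0.13 in MM1S. The groups did not overlap for either probe set, but the MM1S call of the gene was lost whichever of the 4 MM1S arrays was left out.

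PRKCE, which is needed for responses of innate immune cells in mice, lay under the limit of the gene fit. Its probe set 226101_at passed the limit for probe sets through the OPM1 control arrays, and read 6.77 and 2.33 in OPM1 Zalypsis cells against 99.74 and 82.47 in OPM1 control cells. In MM1S it read 7.34 and 6.41 with Zalypsis against 23.03 and 20.83 in control cells, all at or under the array median. The changes were -1.75 ± 0.13 in OPM1-labelled cells and -0.47 ± 0.13 in MM1S, with a difference of -1.28 ± 0.18. Since the OPM1 control arrays brought it into the fit, its lower signal in the other groups was fixed by that limit and is no result. The other 3 probe sets were too dim to test. PRKCH had 3 probe sets with signals of 1.00 to 12.1 on all arrays and was not tested.

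Of the atypical members PRKCI, a kinase of polarity complexes, was lower with Zalypsis in OPM1-labelled cells, where 209678_s_at read 236.43 and 276.18 with Zalypsis against 753.31 and 891.87 in control cells. MM1S cells read 751.65 and 763.33 with Zalypsis against 924.80 and 875.57 in control cells. The groups did not overlap in either line. Means were 256 ± 28.1 with Zalypsis and 823 ± 98.0 in control OPM1-labelled cells, and 757 ± 8.26 with Zalypsis and 900 ± 34.8 in control MM1S cells (SD, n = 2 each). The change was called in OPM1-labelled cells (-1.57 ± 0.15) and not in MM1S (-0.24 ± 0.15), and the responses differed by -1.33 ± 0.21. Without the _s_at, _x_at and _a_at probe sets PRKCI was called lower in MM1S too (-0.39), through 213518_at. In the fit over all probe sets 213518_at was not called in MM1S.

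A second PRKCI probe set, 213518_at, read 78.40 and 63.34 with Zalypsis against 264.79 and 264.14 in control OPM1-labelled cells (-1.53 ± 0.15), and changed by -0.39 ± 0.15 in MM1S. The third, 209677_at, read 32.34 and 39.38 with Zalypsis against 28.95 and 43.73 in control OPM1-labelled cells. Its groups overlapped there, and in MM1S it was 0.33 ± 0.13 higher with Zalypsis, which was not called. A processed copy, PRKCIP1, is annotated in the genome, and the probe sets may read both. PRKCZ, the other atypical member, read 14.09 and 15.32 with Zalypsis against 13.12 and 10.12 in control MM1S cells, and 14.19 and 17.03 with Zalypsis against 13.82 and 10.38 in control OPM1-labelled cells, and was not tested.

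Counted over the family, 3 of the 5 tested members were called lower in MM1S, where 21.1% of all tested genes were lower, and 5 of 5 in OPM1-labelled cells, where 38.5% were lower. No member was called higher in either line. The response was lower in OPM1-labelled cells in 4 of 5, against 31.2% of all genes, with PRKCA the exception. By probe set, 7 of 13 were called lower in MM1S (16.7% of all probe sets) and 11 of 13 in OPM1-labelled cells (32%), and 9 of 13 differed downwards between the lines (23%). Without the PRKCE probe set the counts were 6, 10 and 8 of 12. With it, the MM1S count was 3 without the second Zalypsis array or the first control array of that line, 4 without its first Zalypsis array and 5 without its second control array. Since the members were chosen with these results in view, nothing is read from the counts. The median change of the tested members was -0.40 in MM1S and -1.57 in OPM1-labelled cells, beside 0.02 and -0.07 over all tested genes.

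**Figure D2:**
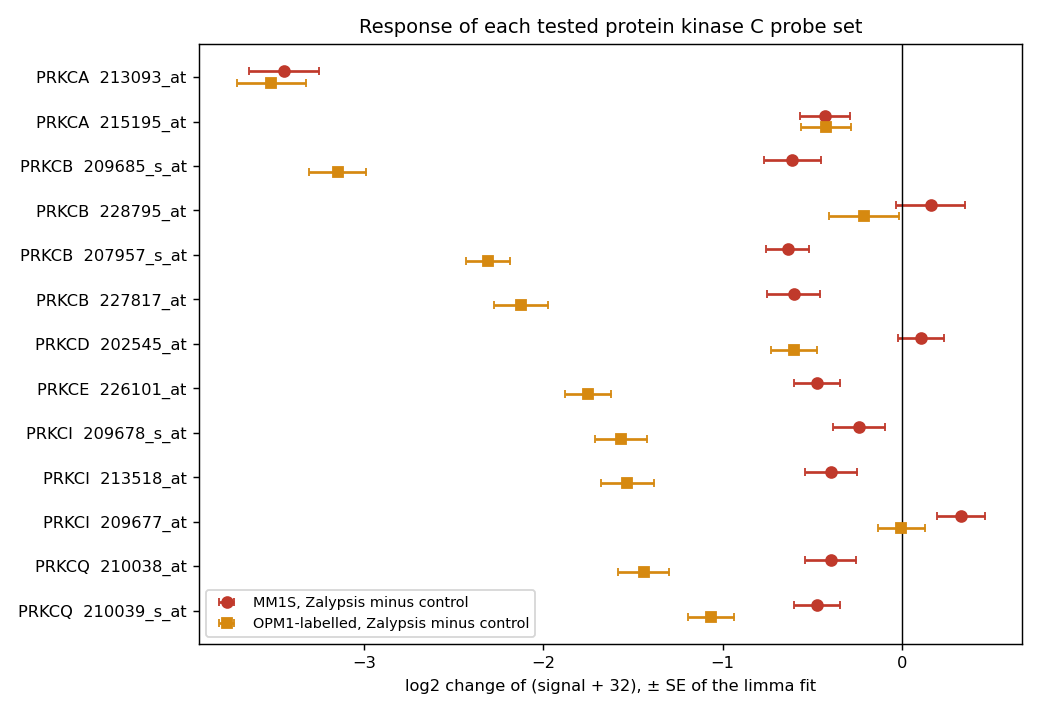
Log2 change of (signal + 32), Zalypsis minus control, for the 13 tested probe sets of the family, with the standard error of the fit over all probe sets. Circles are MM1S and squares OPM1-labelled cells. The PRKCA points of the lines lie together, while 3 of 4 PRKCB probe sets lie 1.5 or more further down in OPM1-labelled cells.

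**Figure D3:**
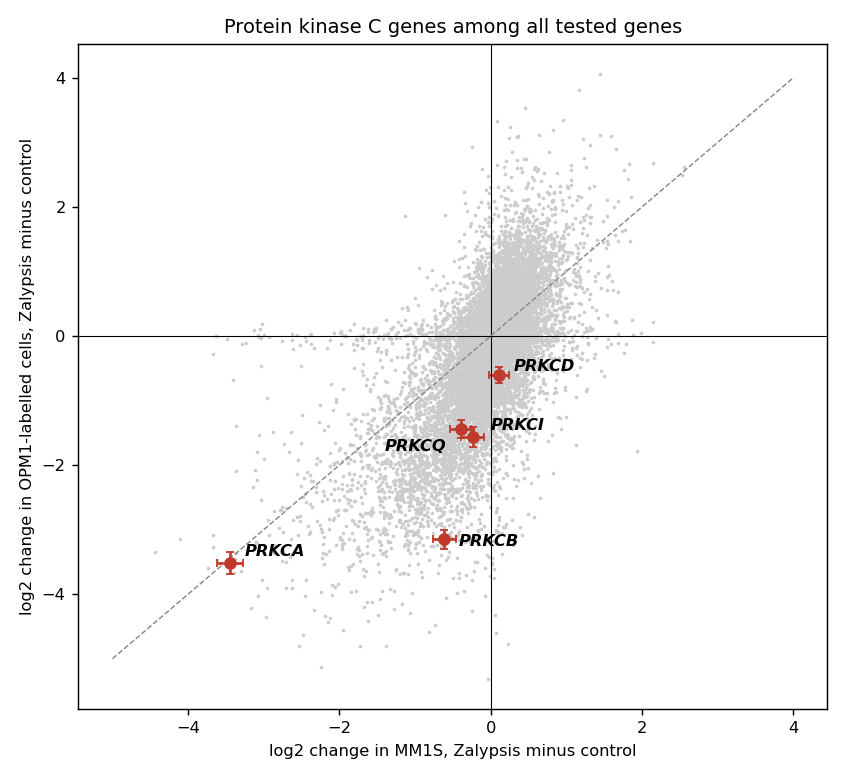
Log2 change in OPM1-labelled cells (vertical) against that in MM1S (horizontal), Zalypsis minus control, for all 11865 tested genes in grey and the 5 tested members in red, with standard errors. PRKCA lies on the dashed line of equal change at -3.45 and -3.52, and the other 4 lie below it.

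Before treatment the lines differed in 2 of the 5 tested members. PRKCB was higher in untreated OPM1-labelled than in untreated MM1S cells, by 3.77 ± 0.15 on the log2 scale, and PRKCQ by 1.24 ± 0.14. Of all tested genes 28.6% were called higher in untreated OPM1-labelled cells and 35.2% lower, so differences between the lines were common. By probe set 6 of 13 of the family were called higher, against 24.4% of all probe sets. These were 3 of PRKCB, 2 of PRKCQ and the PRKCE probe set, which had to be higher there to pass the limit. Without it the count was 5 of 12. Without the _s_at, _x_at and _a_at probe sets PRKCB was 0.30 and not called. PRKCI (-0.13), PRKCD (-0.04) and PRKCA (-0.32) were not called. Without the first OPM1 control array, the one with the high GAPDH ratio, PRKCA was called lower in untreated OPM1-labelled cells (-0.61). Scaled by the poly-A controls, which differ between the lines as given above, the median over all genes was -3.59, and PRKCB (0.28) and PRKCQ (-1.98) lay above it.

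Markers of B cells differed between the same groups as PRKCB, not all in the same direction. The summed signal of 7 B cell markers was 4037.5 to 5047 on the OPM1 Zalypsis arrays against 8202 to 9155 on the OPM1 control arrays. In MM1S it was 160 to 164 with Zalypsis against 178 to 202 in control cells. PAX5, a transcription factor of B cell identity, read 64.80 and 36.97 with Zalypsis against 2882.93 and 3555.79 in control OPM1-labelled cells, and MS4A1, EBF1, BACH2 and CD22 were lower there too. SPIB was higher, at 496.44 and 502.47 with Zalypsis against 250.13 and 242.57 in control OPM1-labelled cells. The antigen receptor subunit CD79A overlapped, at 4217.08 and 3242.64 with Zalypsis against 3122.53 and 3434.56 in control OPM1-labelled cells. The mean signal exceeded 100 for 3 of 7 with Zalypsis and 7 of 7 in control OPM1-labelled cells, and for 0 of 7 in both MM1S groups. The 8 plasma cell markers summed to 3843 to 4246 with Zalypsis against 4731 to 5309 in control OPM1-labelled cells, and to 23867 to 24719 with Zalypsis against 31867 to 33792 in control MM1S cells. Their mean exceeded 100 for 3 with Zalypsis and 6 in control OPM1-labelled cells, and for 7 in both MM1S groups. In OPM1-labelled cells JCHAIN was higher with Zalypsis (3375.23 and 2950.62 against 1866.94 and 2194.47), while XBP1, CD38, TNFRSF17, PRDM1 and SLAMF7 were lower. IRF4 and SDC1 overlapped there. Lists of T or NK cell, myeloid and stromal markers stayed between 43.8 and 190 in sum, with the T or NK cell list at most 134, although PRKCQ was detected. CD14 read 122.79 and 74.36 with Zalypsis against 5.82 and 4.89 in control OPM1-labelled cells. The part of cell identity in the PRKCB values was not tested, and in bulk cultures fewer cells of a type and less RNA per cell cannot be told apart.

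For the members that varied most over the 8 arrays, PRKCA and PRKCB (standard deviation 1.88 and 1.81 on the log2 scale), the 3 tested genes with the closest pattern were sought by distance between centred values. For PRKCA they were FTO, an RNA demethylase (distance 0.56, r = 0.994), ELMO1, a regulator of Rac (0.59, r = 0.993) and SCFD2 (0.60, r = 0.993). Their log2 changes were -3.37 and -3.45 for FTO, -3.67 and -3.27 for ELMO1 and -3.40 and -3.67 for SCFD2, in MM1S and OPM1-labelled cells in that order. For PRKCB they were SMIM14 (distance 0.52, r = 0.994), TNFRSF21, a death receptor (0.60, r = 0.999) and TCL1B, a relative of the T cell leukaemia gene TCL1A (0.68, r = 0.993). They were higher in untreated OPM1-labelled cells by 3.90, 3.42 and 4.27, and changed there by -3.12, -2.80 and -3.20 with Zalypsis. These correlations describe 8 arrays that fall into 4 groups.

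The genes alike to PRKCA were long. PRKCA spans 508 kb of the genome, longer than 99.0% of the 11853 tested genes with a known span (median 28.3 kb), and FTO, ELMO1 and SCFD2 span 418, 596 and 493 kb. PRKCB spans 385 kb and its nearest genes 92.5, 78.4 and 6.20 kb. Among the members the span of PRKCQ was 187 kb, of PRKCI 83.6 kb and of PRKCD 31.5 kb. Of the 359 tested genes over 300 kb, 56.6% were called lower in MM1S and 49.6% in OPM1-labelled cells, with median changes of -0.59 and -0.32. Of the 1618 between 100 and 300 kb, 64.6% and 68.5% were lower (medians -0.70 and -1.24), and of the 2677 under 10 kb, 3.55% and 14.9% were (0.16 and 0.24). PRKCA, taken up for its low signal after treatment, changed further than the median of its class in both lines. So did PRKCB in OPM1-labelled cells (-3.15). In MM1S the change of PRKCB (-0.61), from a dim control signal, lay near that median. PRKCQ changed by -0.40 in MM1S and -1.44 in OPM1-labelled cells, beside class medians of -0.70 and -1.24. The 3713 genes of 30 to 100 kb, the class of PRKCI and PRKCD, had medians of -0.08 and -0.44 in that order. There PRKCI changed by -0.24 and -1.57, and PRKCD by 0.11 and -0.60. PRKCE and PRKCH, which were not in the gene fit, span 537 and 364 kb.

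**Figure D4:**
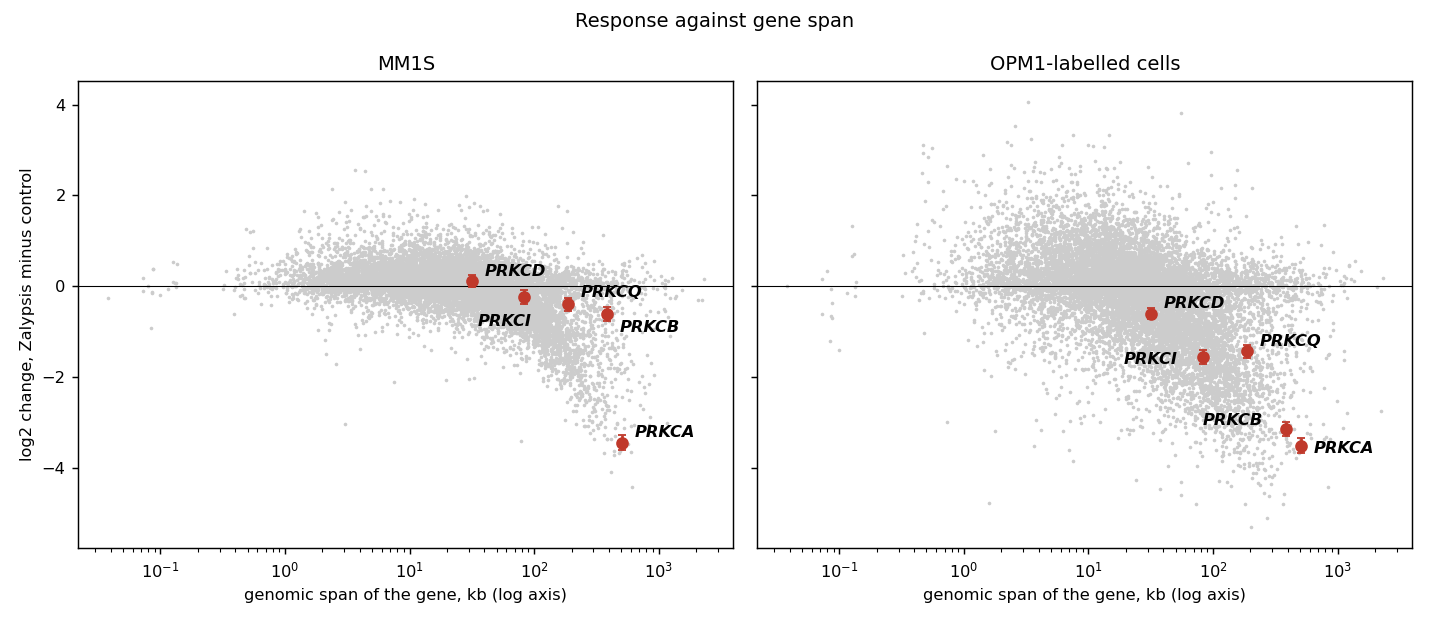
Log2 change, Zalypsis minus control, against the genomic span of the gene in kb (log axis) for all tested genes with a span in grey and the 5 tested members in red with standard errors, in MM1S (left) and OPM1-labelled cells (right). In OPM1-labelled cells PRKCA and PRKCB, the tested members with the longest spans, lie lowest, and in MM1S PRKCA lies apart from the other 4.

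Genes that act around the family were read from 8 lists by role, of which 61 genes passed the limit on dim genes. The lists were chosen with earlier results of these arrays known. The genes named are mainly those with the largest changes among the genes called. Their adjusted p-values therefore describe the fit and are no independent evidence. With Zalypsis 7 of the 61 rose and 21 fell in MM1S, and 10 rose and 34 fell in OPM1-labelled cells, beside 16.4% and 21.1% of all genes in MM1S and 25.4% and 38.5% in OPM1-labelled cells. The response was lower in OPM1-labelled cells for 24 and higher for 11, beside 31.2% and 15.3% of all genes. In the untreated lines 19 were higher and 22 lower in OPM1-labelled cells, beside 28.6% and 35.2%.

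Upstream, phospholipase C had 5 tested genes, of which 1 fell in MM1S and 2 fell and 1 rose in OPM1-labelled cells. PLCG2, the isoform that acts after the B cell receptor, read 46.37 and 38.36 with Zalypsis against 245.05 and 224.78 in control MM1S cells. OPM1-labelled cells read 87.32 and 48.90 with Zalypsis against 1153.70 and 1115.19 in control cells. It fell by 1.84 ± 0.16 (adjusted p = 3.7e-09) in MM1S and fell by 3.57 ± 0.16 (adjusted p = 2.1e-14) in OPM1-labelled cells, with a difference of -1.72 ± 0.22 (adjusted p = 1.81e-06). Its relative PLCG1 (-0.40 ± 0.14, adjusted p = 0.0142) and PLCB3 (0.32 ± 0.13, adjusted p = 0.0327) were called in OPM1-labelled cells, but not without the first control or the second Zalypsis array of that line. PLCG1 was not called there with quantile (-0.0066) or 75th percentile scaling (-0.0445) either. Its other probe set, 216551_x_at, changed there by 0.24 and was not called.

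Diacylglycerol kinases end the signal by turning diacylglycerol into phosphatidic acid. Of 7 tested, 3 fell in MM1S, and 4 fell and 1 rose in OPM1-labelled cells. DGKD, the delta kinase, read 128.42 and 90.24 in OPM1 Zalypsis cells against 2079.99 and 1883.78 in OPM1 control cells (-3.84 ± 0.17, adjusted p = 1.97e-14). MM1S cells read 32.78 and 16.83 with Zalypsis against 226.96 and 168.11 in control cells (-2.02 ± 0.17, adjusted p = 2.75e-09). DGKH, the eta kinase, fell by 0.68 ± 0.14 in MM1S (adjusted p = 0.000486) and by 2.30 ± 0.14 in OPM1-labelled cells (adjusted p = 3.31e-12). Its probe sets 235952_at and 240145_at were not called in MM1S (-0.25 and -0.28). They were called lower in OPM1-labelled cells (-0.90 and -0.92). DGKG fell in MM1S (-1.19 ± 0.14, adjusted p = 6.42e-07) and DGKZ in OPM1-labelled cells (-1.30 ± 0.16, adjusted p = 3.87e-07), although DGKZ was not called without the _s_at, _x_at and _a_at probe sets (-0.25).

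Other receptors of diacylglycerol share the C1 domain with the family. Of 6 tested, 4 fell in MM1S and 3 in OPM1-labelled cells, and none rose in either, with UNC13B and RASGRP1 counted although each passed the limit on dim genes only through the control arrays it is set against. RASGRP3, a Ras activator of B cells, read 137.55 and 128.61 with Zalypsis against 655.12 and 662.19 in control MM1S cells, and 18.54 and 15.09 with Zalypsis against 169.07 and 151.82 in control OPM1-labelled cells. It fell by 2.07 ± 0.13 (adjusted p = 1.96e-11) in MM1S and fell by 1.98 ± 0.13 (adjusted p = 7.37e-12) in OPM1-labelled cells. RASGRP2 fell in OPM1-labelled cells (-1.16 ± 0.14, adjusted p = 1.62e-07), and the Rac regulator CHN1 fell in MM1S (-1.01 ± 0.14, adjusted p = 4e-06). RASGRP1 read 11.94 and 4.55 with Zalypsis against 125.76 and 101.16 in control OPM1-labelled cells. The vesicle priming factor UNC13B read 57.74 and 50.06 with Zalypsis against 388.66 and 321.92 in control MM1S cells. These last differences followed in part from the limit and are given as values.

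The related kinases of the PKD and PKN groups had 3 tested genes, of which 2 fell in MM1S and 3 in OPM1-labelled cells. PRKD3, a kinase that protein kinase C activates, fell by 1.35 ± 0.15 in MM1S (adjusted p = 1.63e-07) and by 1.27 ± 0.15 in OPM1-labelled cells (adjusted p = 1.02e-07), the second not called without the _s_at, _x_at and _a_at probe sets (-0.24). PKN2, whose kinase domain resembles that of protein kinase C, changed by -0.69 ± 0.14 in MM1S and -1.33 ± 0.14 in OPM1-labelled cells (adjusted p = 0.000359 and 1.92e-08). PRKD2 was called lower in OPM1-labelled cells (-0.38 ± 0.16, adjusted p = 0.0443), but lost the call in 11 of 19 other settings, among them each that left out an OPM1 array.

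Newly made protein kinase C is primed by PDPK1 and mTOR complex 2 and dephosphorylated by PHLPP phosphatases. Of 10 tested genes of this kind, 3 fell and 1 rose in MM1S, and 7 fell and 1 rose in OPM1-labelled cells. PHLPP1 read 21.47 and 29.74 with Zalypsis against 141.77 and 115.91 in control MM1S cells, and 16.81 and 10.33 with Zalypsis against 171.31 and 182.55 in control OPM1-labelled cells. It fell by 1.48 ± 0.13 (adjusted p = 9.9e-09) in MM1S and fell by 2.20 ± 0.13 (adjusted p = 3.37e-12) in OPM1-labelled cells. In MM1S and OPM1-labelled cells, in that order, MTOR changed by -1.04 ± 0.13 and -1.41 ± 0.13 (adjusted p = 1.79e-06 and 4.98e-09). Another MTOR probe set, 215381_at, changed by -0.16 and -0.04 and was called in neither. RICTOR, a subunit of mTOR complex 2, changed by -0.996 ± 0.16 and -1.41 ± 0.16 (adjusted p = 3.43e-05 and 8.39e-08), although another RICTOR probe set, 226310_at, changed by -0.42 and -0.07. The response of PDPK1 was lower in OPM1-labelled cells (-0.95 ± 0.22, adjusted p = 0.00112), as was that of MAPKAP1, another mTOR complex 2 subunit (-1.24 ± 0.25, adjusted p = 0.000312, and 0.22 with the poly-A scaling). The MAPKAP1 probe set used, 229845_at, changed by 0.48 in MM1S and -0.75 in OPM1-labelled cells, while 3 others changed by -2.07 to -1.41 and by -3.23 to -1.80.

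Among 11 tested adaptors and partners, 4 fell and 2 rose in MM1S, and 4 fell and 3 rose in OPM1-labelled cells. PAWR, a death-promoting inhibitor of atypical protein kinase C, read 46.15 and 62.52 in OPM1 Zalypsis cells against 1049.15 and 998.35 in OPM1 control cells. The MM1S arrays gave 218.61 and 216.14 with Zalypsis against 597.70 and 524.99 in control cells. It fell by 3.62 ± 0.15 (adjusted p = 7.19e-15) in OPM1-labelled cells and fell by 1.25 ± 0.15 (adjusted p = 5.07e-07) in MM1S, a difference of -2.37 ± 0.21 (adjusted p = 1.01e-08). PARD3, the scaffold that binds PRKCI in polarity complexes, read 27.38 and 40.83 with Zalypsis against 397.37 and 352.80 in control MM1S cells, and is given as values since only those control arrays took it past the limit on dim genes. It is among the 4 counted as fallen. Its partner PARD6B rose in MM1S (0.56 ± 0.12, adjusted p = 0.000997, but not called with the poly-A scaling, at 0.42). In OPM1-labelled cells the autophagy receptor SQSTM1 rose (0.94 ± 0.14, adjusted p = 4.46e-06), but with the poly-A scaling it was -0.85. Other SQSTM1 probe sets were called higher there (244804_at at 1.70, 239004_at at 0.35) or not called (213112_s_at at 0.15, 242568_s_at at -0.02). The 14-3-3 protein YWHAZ fell in OPM1-labelled cells (-0.97 ± 0.15, adjusted p = 7.14e-06). Its probe sets disagreed there, with 200638_s_at at 0.59 and 200641_s_at at 1.08.

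Of 10 tested substrates, 3 fell and 2 rose in MM1S, and 6 fell and 2 rose in OPM1-labelled cells. MARCKSL1, a membrane and actin binding substrate, read 1637.51 and 1392.74 with Zalypsis against 358.09 and 280.73 in control MM1S cells. In OPM1-labelled cells it read 6830.31 and 6181.63 with Zalypsis against 964.47 and 1021.90 in control cells. It rose by 2.14 ± 0.15 (adjusted p = 1.66e-10) in MM1S and by 2.67 ± 0.15 (adjusted p = 8.63e-13) in OPM1-labelled cells, where the poly-A scaling gave 0.69. PLEK, the pleckstrin of blood cells, fell in OPM1-labelled cells (-2.20 ± 0.14, adjusted p = 4.94e-12), as did the lamin LMNB1 (-2.11 ± 0.15, adjusted p = 6.8e-11). Of the adducins ADD3 and ADD1 fell in both lines, while ADD2 was called in neither (0.17 in MM1S and 0.29 in OPM1-labelled cells). ADD3 changed by -0.65 ± 0.15 in MM1S (adjusted p = 0.00157) and -1.30 ± 0.15 in OPM1-labelled cells (adjusted p = 1.02e-07). ADD1 changed by -0.54 ± 0.15 in MM1S (adjusted p = 0.00679) and -0.68 ± 0.15 in OPM1-labelled cells (adjusted p = 0.000466), the MM1S change not called without the second MM1S Zalypsis array (-0.40). Without the _s_at, _x_at and _a_at probe sets ADD1 was called in neither line (0.0036 in MM1S and 0.0147 in OPM1-labelled cells).

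BCL10, MALT1 and the IkB kinases act between protein kinase C and NF-kB. Of 9 tested genes of this relay, 1 fell and 2 rose in MM1S, and 5 fell and 2 rose in OPM1-labelled cells. MALT1, the protease of the complex, read 50.08 and 57.84 in OPM1 Zalypsis cells against 235.77 and 319.40 in OPM1 control cells (-1.84 ± 0.14, adjusted p = 1.83e-10). In MM1S it read 180.20 and 191.81 with Zalypsis against 350.47 and 342.57 in control cells (-0.80 ± 0.14, adjusted p = 0.000115). BCL10 rose by 0.75 ± 0.15 in MM1S (adjusted p = 0.000346, but not called with the poly-A scaling, at 0.51) and by 1.28 ± 0.15 in OPM1-labelled cells (adjusted p = 1.3e-07). Another BCL10 probe set, 1557258_a_at, was not called in MM1S (-0.07) and was called higher in OPM1-labelled cells (0.35). The ubiquitin ligase TRAF6 rose by 0.61 ± 0.13 in MM1S (adjusted p = 0.00102) and by 0.56 ± 0.13 in OPM1-labelled cells (adjusted p = 0.00101). Its probe sets disagreed, as 205558_at was not called in MM1S (0.22) and was called lower in OPM1-labelled cells (-0.54). With the poly-A scaling the OPM1 changes were -0.44 for BCL10 and -0.53 for TRAF6. The kinases CHUK (-1.92 ± 0.14, adjusted p = 6.6e-11) and IKBKB (-1.59 ± 0.13, adjusted p = 2.25e-10) fell in OPM1-labelled cells, where 2 further IKBKB probe sets changed by -0.21 and 0.15. The differences between the lines were -1.97 ± 0.20 for CHUK and -1.43 ± 0.18 for IKBKB (adjusted p = 6.79e-08 and 1.13e-06).

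**Figure D5:**
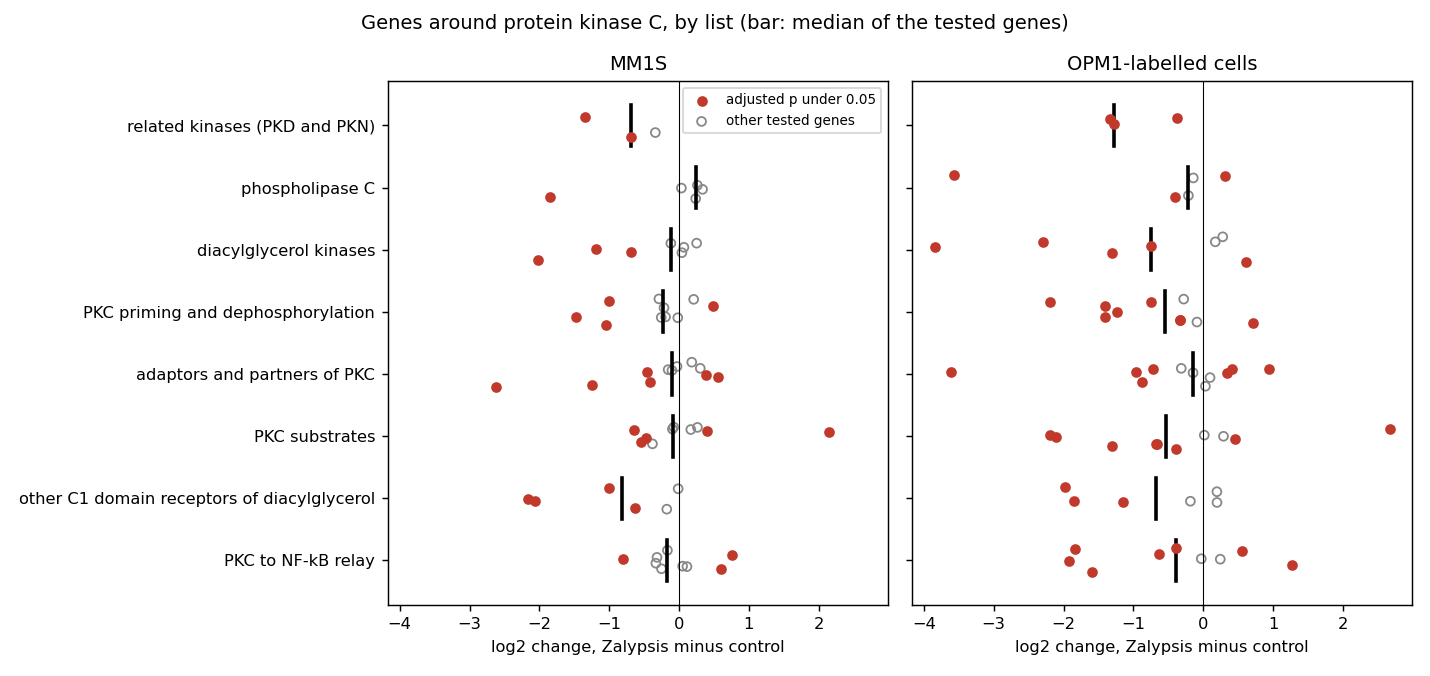
Log2 change, Zalypsis minus control, of the tested genes in the 8 lists around protein kinase C, in MM1S (left) and OPM1-labelled cells (right). Filled red points are genes called at an adjusted p under 0.05, open points the others, and bars the list medians, which run from -0.82 to 0.24 in MM1S and from -1.27 to -0.15 in OPM1-labelled cells.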

How the data were processed

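RNA of 8 samples was read on HG-U133 Plus 2.0 arrays. Per the labels' protocols 100 ng of RNA was labelled after 2-cycle amplification. The deposited intensity values are on a linear scale, from the authors' dChip analysis per the series' design text. Of dChip, neither version nor normalization is given in the sources used here. These values were kept as they were and turned into log2(value + 32). The 62 control probe sets, and for the gene fit 1801 probe sets with several symbols and 11721 without one, were left out. limma 3.58.1 (R 4.3.3) fitted 1 mean per group over all arrays, with a trended prior (4 residual and 17.0 prior degrees of freedom) and Benjamini-Hochberg adjustment over all genes or probe sets tested. It was tested on simulated data.

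The members and lists were chosen with earlier results of these data known. From each list, up to 3 genes per line with the largest change among those called, and up to 2 with the largest difference of responses, were eligible to be named. Gene spans and promoters come from RefSeq for GRCh38.p14. The array count limits precision, and no depth applies. Same-numbered arrays of a line deviated together only weakly (r = 0.21 in each line), over 2 pairs per line, so numbers were not taken to pair arrays. Alternatives were other pseudocounts, normalizations, filters, probe set rules, no trend, a replicate block, the authors' 2-fold rule and leaving out each array.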

Additional observations from a re-analysis of the deposited data

Results flagged for a closer look

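The response to Zalypsis differed between the lines, by the interaction term of the limma fit, in 4 of the 5 tested members. Of all tested genes 31.2% were called lower and 15.3% higher by this term. The difference, OPM1-labelled minus MM1S on the log2 scale, was -2.54 for PRKCB, -1.33 for PRKCI, -1.04 for PRKCQ and -0.71 for PRKCD. All 4 were lower after Zalypsis in OPM1-labelled cells, while PRKCD and PRKCI were not called in MM1S. PRKCB and PRKCQ were dim in MM1S control cells, which limited their fall there, so part of their differences follows from the starting level. Without the _s_at, _x_at and _a_at probe sets PRKCI was called lower in MM1S (-0.39) and the PRKCB difference was -0.37 and not called. In the fit over all probe sets no PRKCI probe set was called in MM1S. With the poly-A scaling the PRKCQ difference was -0.43 and not called. The members were taken up with results of these arrays known, so the values are a description. Groups of 2 arrays are too small for a search for single outlying arrays.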

How the results depend on the processing

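All 5 tested members stayed lower in OPM1-labelled cells under quantile, 75th percentile and poly-A scaling. With the poly-A controls, which lie at the median signal on MM1S arrays, medians of all genes moved to -0.25 in MM1S, -0.88 in OPM1-labelled cells, -0.69 for the difference and -3.59 for the untreated lines, so that comparison says little. There 4 members were called, all lower, 11 member probe sets, and 11815 genes. PRKCQ turned to -1.98, and PRKCB was 0.28 and not called. For the difference of responses 5 member probe sets were called, and PRKCA differed by 2.10. The probe set counts with this scaling were chosen after seeing the data. PLCB3 (-0.40), SQSTM1 (-0.85), BCL10 (-0.44) and TRAF6 (-0.53) in OPM1-labelled cells and the MAPKAP1 difference (0.22) also turned, and PRKD2 did with quantile scaling (0.0113). Of all called genes 56.2% were lower in MM1S, 60.3% in OPM1-labelled cells, 67.0% for the difference and 55.2% for the untreated lines. Quantile scaling gave 45.4%, 45.4%, 52.4% and 48.4%, 75th percentile scaling 42.9%, 40.7%, 47.8% and 46.9%, and poly-A scaling 83.6%, 99.6%, 89.5% and 99.5%.

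Without the dimmest 60% of genes only 3 members were tested, of which 3 were called in OPM1-labelled cells, 2 for the difference and 1 for the untreated lines, with 27 pathway genes for the last. Without _s_at, _x_at and _a_at probe sets PRKCB in MM1S was 0.16, ADD1 0.0036 there and 0.0147 in OPM1-labelled cells, and 28 pathway genes were called in OPM1-labelled cells. By the authors' 2-fold rule 1622, 4490, 3548 and 3892 genes were called in MM1S, OPM1-labelled cells, the difference and the untreated lines, and 14, 25, 22 and 26 pathway genes. Leaving out an array gave 3 to 8 member probe sets in MM1S, 2 to 3 members in MM1S and in the untreated lines, and 5 in OPM1-labelled cells. The MM1S call of PRKCQ was also lost with quantile and 75th percentile scaling and with no filter. With the replicate block 3 members were called in MM1S, 5 in OPM1-labelled cells, 4 for the difference and 2 for the untreated lines, as without it, and 5461 genes in MM1S. Of 59 pathway results named by the rule, 47 kept their call and direction in all settings run. The causes were not tested.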

Other observations

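Antisense transcripts of the family were on the array too and were chosen after their values were seen. PRKCQ-AS1, which starts beside PRKCQ, read 160.44 and 152.16 with Zalypsis against 136.54 and 122.55 in control OPM1-labelled cells in probe set 232001_at. In MM1S it read 66.67 and 71.04 with Zalypsis against 74.04 and 73.79 in control cells. The limma changes were 0.22 ± 0.12 (adjusted p = 0.144) and -0.07 ± 0.12 (adjusted p = 0.726), neither of them called, where PRKCQ itself changed by -1.44 and -0.40.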
